A study of Homo sapiens with 6 samples.

Results

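The mitochondrial respiratory chain and the ATP synthase are built from subunits encoded in the nucleus and a small set encoded in mitochondrial DNA. The transcripts of the nuclear subunits were examined here complex by complex in BEAS-2B, a human cell line from bronchial epithelium, after treatment with RSL3 and indirubin or with RSL3 alone. The genes were taken by symbol from the protein-coding entries of the deposited expression table: the NDUFA, NDUFB, NDUFC, NDUFS and NDUFV genes with a number, SDHA to SDHD, the UQCR genes, COX genes numbered from 4 to 8, the ATP5F1, ATP5M and ATP5P genes, CYC1 and CYCS. COX symbols could hold at most a letter and a digit after the number, and no COX4 gene met this. The rule gave 85 of the 35019 genes listed. They comprise 36 genes of complex I, 4 of complex II, 11 of complex III with cytochrome c, 15 of complex IV and 19 of complex V. NDUFA4 carries a complex I name but is known as a subunit of complex IV and was placed there.

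There were 2 groups of 3 libraries. The RSL3+ID group received indirubin (ID), a bis-indole dye and kinase inhibitor, 2 h before RSL3. The RSL3 group received RSL3 alone, which blocks GPX4 covalently. GPX4 detoxifies lipid peroxides, and its loss sets off ferroptosis, an iron-dependent form of cell death. RSL3 was given at 2 µM for 24 h. For indirubin the labels give doses from 7.5 to 30 µM without tying any of them to these libraries. Both groups received RSL3, and neither untreated cells nor cells given indirubin alone were analysed here. An altered response to RSL3 and an effect of indirubin by itself cannot be told apart. The groups rest on the treatment field of the labels, since all 6 titles begin with RSL3+M, where M is not defined. Nothing in the labels ties the libraries to separate cultures. The p-values therefore reflect the spread among these libraries alone, and that spread may be technical.

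Complex I (NADH dehydrogenase) and complex II (succinate dehydrogenase) pass electrons to ubiquinone, complex III passes them on to cytochrome c, and complex IV (cytochrome c oxidase) hands them to oxygen. Complexes I, III and IV pump protons, and complex V (ATP synthase) uses the proton gradient to make ATP. The catalytic cores of these machines are surrounded by many small accessory subunits, whose genes are short. In ferroptosis, mitochondria are known as a source of lipid peroxides, and ubiquinol, the reduced form of ubiquinone, is known as a radical-trapping antioxidant.

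Reads on listed genes numbered 16062502 to 18506637 in the RSL3+ID libraries and 15206183 to 17960356 in the RSL3 libraries, and a count of 0 in a library allows a level of up to 3 reads, or 2.68 to 3.17 normalised counts. A normalised count is the number of reads divided by the authors' size factor for the library. Such limits cover counting error only. The cells carried the keratins of simple epithelium at high level, with KRT8 at 17096 to 20558 normalised counts in RSL3+ID and 21190 to 24043 in RSL3. KRT18 fell (log2 fold change −0.66, adjusted p = 0.0361). CDH1 and KRT5 were low (at most 39.1 normalised counts), and the mesenchymal genes VIM and FN1 were abundant. In 4 marker lists of other cell types (mesenchymal, secretory or ciliated airway, immune, endothelial), no gene passed the test. All 5 tested mesenchymal markers had negative estimates (median −0.34, or −0.15 without RSL3+ID library 2), of which COL1A1 had an unadjusted p under 0.05 and groups that did not overlap. Mesenchymal markers summed to 0.0660% to 0.125% of reads in RSL3+ID and 0.109% to 0.132% in RSL3. Of 5 tested epithelial markers, 4 were negative (median −0.20, or 0.034 without RSL3+ID library 2), and the list summed to 0.20% to 0.243% of reads in RSL3+ID and 0.267% to 0.301% in RSL3. The part of these shifts in the results was not tested. The leukocyte genes CD3E and MS4A1 were at 0 in all 6 libraries, and PTPRC and the endothelial gene PECAM1 did not exceed 9.63 normalised counts.

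Most nuclear subunits had a modestly higher estimate in RSL3+ID than in RSL3, in every complex except complex II, where estimates were split. Of the 78 members that could be tested, 68 had a positive and 10 a negative estimate of the log2 fold change (RSL3+ID over RSL3), whereas 48.5% of all 14188 genes tested were positive. Members had a median log2 fold change of 0.31, and all genes tested had −0.02. With a smooth trend of expression on gene length and GC content removed from each library, the median was 0.16 for members and −0.0064 for all genes. The medians of complexes I to V were then 0.13, 0.17, 0.15, 0.17 and 0.21, so that of complex II was no longer the lowest. 6 members rose at an adjusted p under 0.05 (limma, Benjamini-Hochberg over all genes tested) and none fell, with 1.08% of all genes called higher and 0.832% called lower. At an unadjusted p under 0.05 there were 38 members, and 2744 of all genes tested. In 44 members every RSL3+ID library lay above every RSL3 library, against 12.8% of all genes tested, and in 1 member, UQCRC2, every RSL3+ID library lay below, against 12.6% of all genes. The authors' deposited table of changed genes holds 15 members, all with a positive fold change, including all 6 called here. That table holds 3.27% of all genes tested here as higher and 3.03% as lower. In bulk RNA, fewer cells of a kind and less RNA per cell cannot be told apart.

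**Figure D1:**
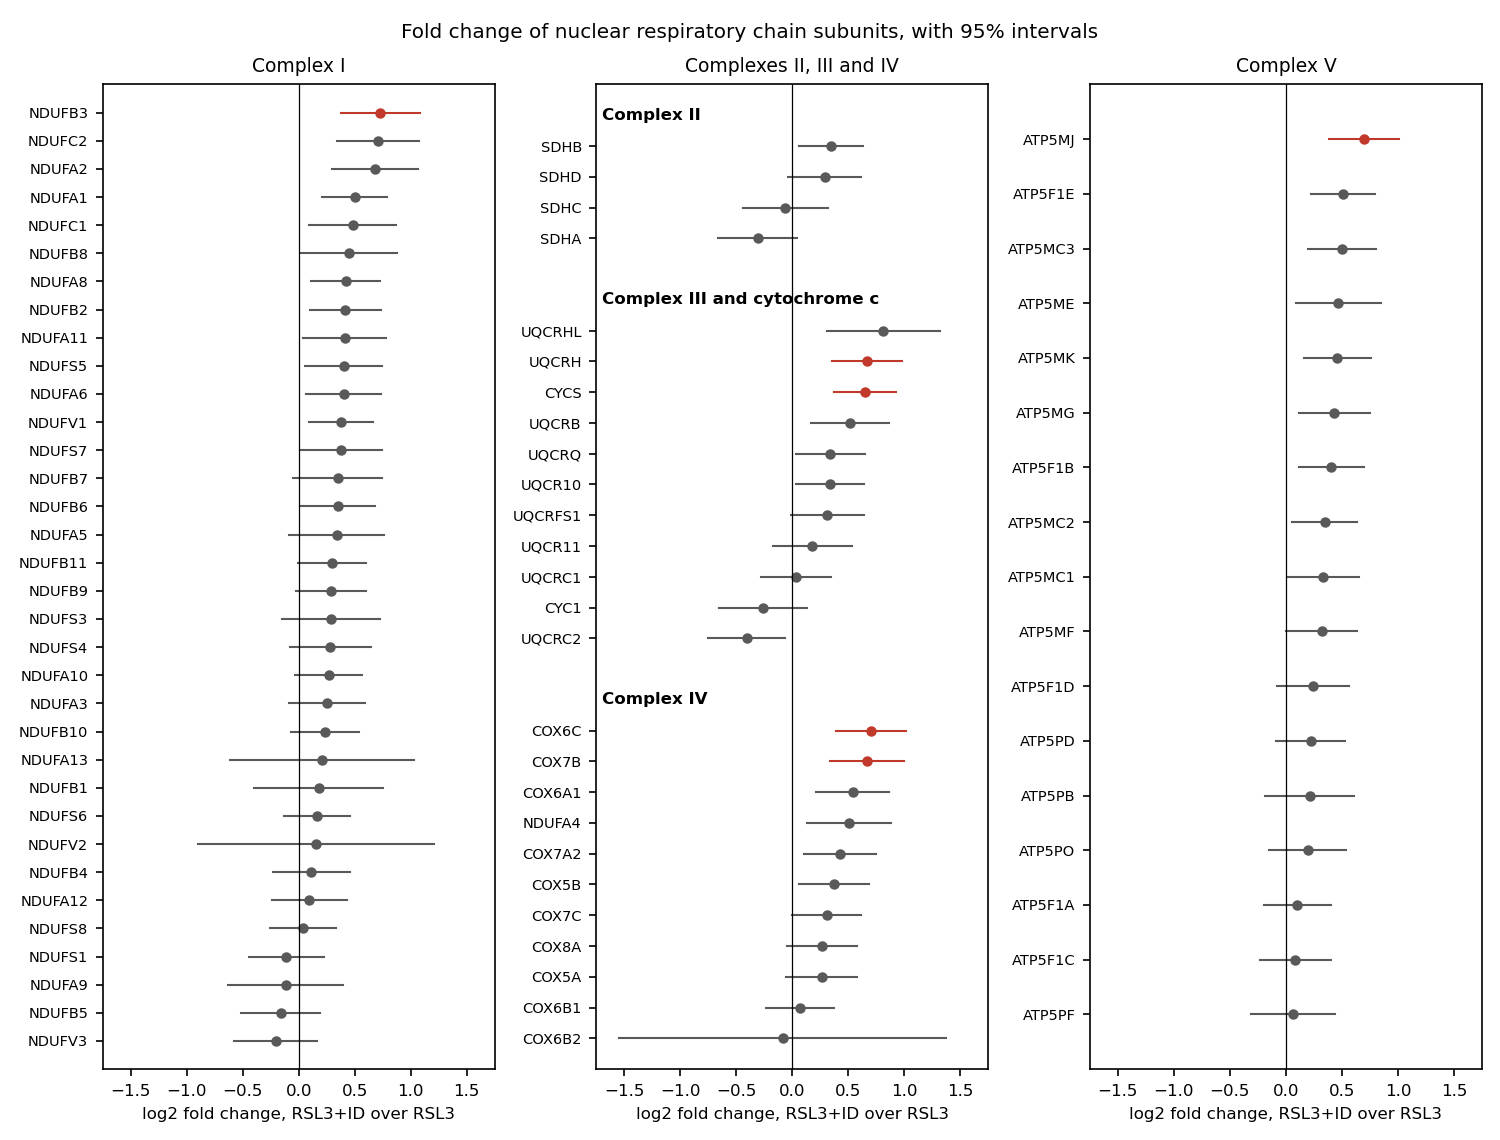
Log2 fold change (RSL3+ID over RSL3, horizontal axis) of tested members of complexes I to V, with the 95% interval as a bar; red marks an adjusted p under 0.05. Most points lie to the right of 0, the 6 red members lie between 0.65 and 0.73, and complexes I, II, III and IV each hold some members left of 0.

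The reads that fell on the 85 members made up 1.06%, 1.25% and 1.13% of all reads in the RSL3+ID libraries, against 0.944%, 0.919% and 1.03% in the RSL3 libraries. The groups did not overlap, and RSL3+ID library 2 was the highest of all. This library was the highest of its group for 45 of the tested members and the lowest for 15. Without RSL3+ID library 2, 17 members rose, beside 5.21% of all genes tested. Without any other single library (RSL3 library 1, 2 or 3, or RSL3+ID library 1 or 3) no member was called, and at most 4 of all genes were. The direction held more widely than the calls: 62 members stayed positive and 6 stayed negative whichever library was left out, and 10 changed sign at least once.

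The 6 members that rose come from complexes I, III, IV and V and from the mobile carrier between III and IV. CYCS encodes cytochrome c, which shuttles electrons from complex III to complex IV and, when released from mitochondria, starts apoptosis (chromosome 7, 25120091 to 25125361, minus strand, GRCh38). It had 6343, 6150 and 7261 normalised counts in RSL3+ID, against 4197, 4090 and 4275 in RSL3. The lowest RSL3+ID library lay well above the highest RSL3 library, and the log2 fold change was 0.65 (SE 0.13, adjusted p = 0.0369). COX6C, a small structural subunit of complex IV (chromosome 8, 99873200 to 99894062, minus strand), had 2416, 3178 and 2808 normalised counts in RSL3+ID, against 1691, 1677 and 1775 in RSL3. Its 3 RSL3 libraries were close together while the RSL3+ID libraries spread more, and the log2 fold change was 0.70 (SE 0.14, adjusted p = 0.0401). ATP5MJ, a small proteolipid subunit of the ATP synthase membrane part (chromosome 14, 103912288 to 103928269, minus strand), had 2053, 2535 and 2207 normalised counts in RSL3+ID, against 1381, 1297 and 1500 in RSL3. The groups did not overlap, and the difference was 0.70 on the log2 scale (SE 0.14, adjusted p = 0.0401).

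UQCRH, the hinge subunit of complex III that sits at the docking face for cytochrome c (chromosome 1, 46303631 to 46316776, plus strand), had 4331, 5672 and 5004 normalised counts in RSL3+ID, against 3238, 2849 and 3350 in RSL3. All RSL3+ID libraries were higher, and the log2 fold change was 0.66 (SE 0.14, adjusted p = 0.0443). NDUFB3, an accessory subunit of the membrane arm of complex I (chromosome 2, 201071433 to 201085750, plus strand), had 1220, 1721 and 1579 normalised counts in RSL3+ID, against 859, 906 and 935 in RSL3. It had the largest estimate of the 6, 0.73 on the log2 scale (SE 0.16, adjusted p = 0.0473). COX7B, another small subunit of complex IV (X chromosome, 77899438 to 77907373, plus strand), had 1648, 1954 and 2064 normalised counts in RSL3+ID, against 1046, 1230 and 1284 in RSL3. The groups were apart, and the log2 fold change was 0.67 (SE 0.15, adjusted p = 0.0491). The 6 fold changes thus lay between 1.57-fold and 1.66-fold, and all 6 adjusted p-values lay close under the threshold. CYCS and UQCRH have near-identical copies in the genome, so their reads may be shared with those copies.

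**Figure D2:**
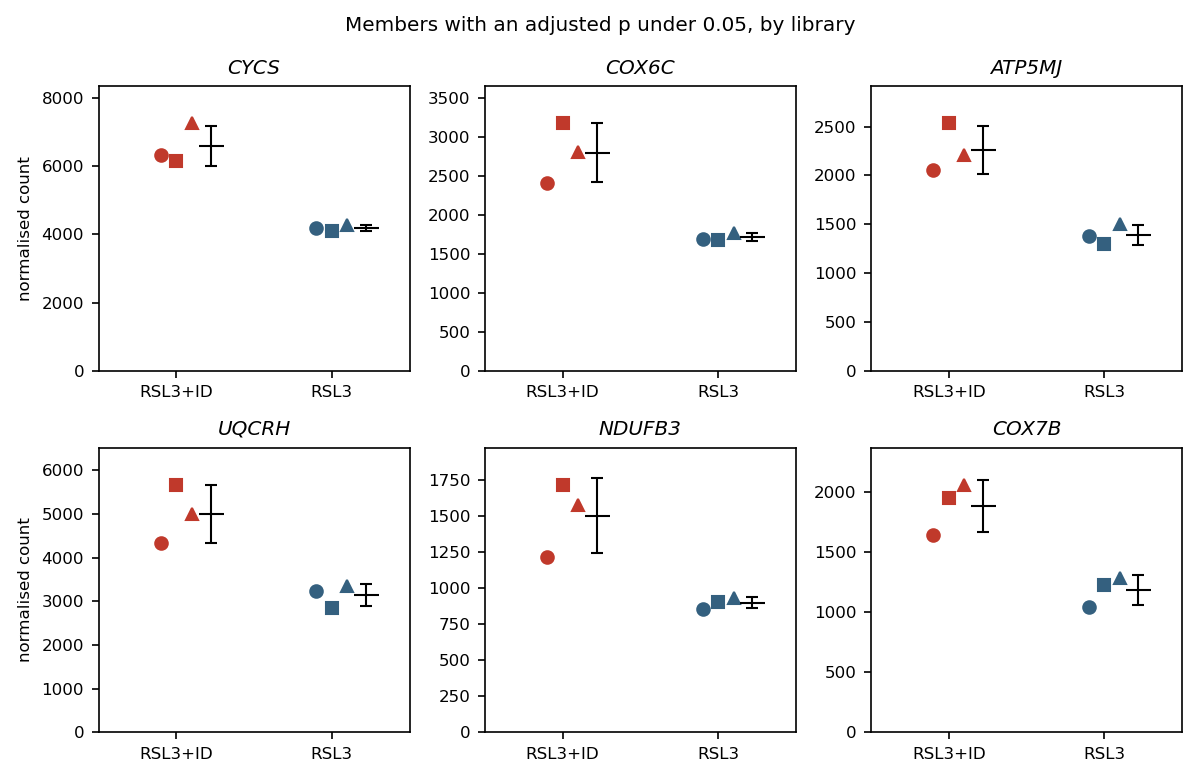
Normalised counts (vertical axis, from 0) of the 6 members with an adjusted p under 0.05 in the 3 RSL3+ID libraries (red, left) and the 3 RSL3 libraries (blue, right); circles, squares and triangles are libraries 1, 2 and 3, and the black mark is the mean with its SD. In all 6 panels every red point lies above every blue point, as for CYCS with 6150 or more in RSL3+ID and 4275 or less in RSL3.

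Since many nuclear respiratory genes are known targets of NRF1, of the ETS factor GABPA (also called NRF2) and of YY1, their promoters were read from RefSeq (GRCh38.p14), as 250 bases before and 50 after each gene's start. The promoters of 67 of the 85 members were matched by symbol. The NRF1 motif (GCGCA, any base, GCGC) was found on either strand in 17 of them (25.4%), against 6.29% of all 27305 promoters. The ETS motif CCGGAAG was in 19 (28.4%, against 10.7%), the YY1 motif AANATGGCG in 16 (23.9%, against 3.37%) and the GC box GGGCGG in 39 (58.2%, against 44.6%). The letters CCAAT were in 24 members (35.8%), nearly the share of all promoters (35.7%). The NRF1 and ETS motifs share no letters in the stretches printed here, and a palindromic NRF1 match such as that of SDHD counts on both strands.

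Of the 6 members that rose, 5 had a promoter in the table. NRF1 letters were found in 1 of these (ATP5MJ), ETS letters in 1 (UQCRH) and YY1 letters in none. A match describes letters in this window only. The 120 bases before the start of these 5 genes are shown because these members rose. SDHA, with 4 NRF1 matches in its window, and SDHD, with 1 palindromic NRF1 site, follow as members of complex II that hold NRF1 letters. SDHA had a negative estimate and SDHD a positive one, and neither was called. Capitals mark NRF1 and ETS motifs.
NDUFB3 (chr2:201071881-201072000, plus strand): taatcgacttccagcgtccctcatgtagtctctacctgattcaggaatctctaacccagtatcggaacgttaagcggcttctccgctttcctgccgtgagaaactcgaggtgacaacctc
CYCS (chr7:25125261-25125380, minus strand): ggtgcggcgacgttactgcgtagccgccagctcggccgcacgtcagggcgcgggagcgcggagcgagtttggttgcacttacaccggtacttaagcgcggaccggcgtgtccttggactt
UQCRH (chr1:46303578-46303697, plus strand): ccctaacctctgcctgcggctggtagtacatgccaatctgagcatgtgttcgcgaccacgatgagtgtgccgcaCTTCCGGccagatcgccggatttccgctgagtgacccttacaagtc
COX7B (chrX:77899348-77899467, plus strand): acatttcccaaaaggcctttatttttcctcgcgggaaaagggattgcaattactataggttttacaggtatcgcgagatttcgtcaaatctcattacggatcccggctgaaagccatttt
ATP5MJ (chr14:103921530-103921649, minus strand): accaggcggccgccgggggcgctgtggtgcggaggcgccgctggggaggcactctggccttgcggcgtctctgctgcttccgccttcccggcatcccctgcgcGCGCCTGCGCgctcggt
SDHA (chr5:218200-218319, plus strand): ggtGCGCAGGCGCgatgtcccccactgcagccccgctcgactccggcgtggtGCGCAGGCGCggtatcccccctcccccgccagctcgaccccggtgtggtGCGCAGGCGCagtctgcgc
SDHD (chr11:112086753-112086872, plus strand): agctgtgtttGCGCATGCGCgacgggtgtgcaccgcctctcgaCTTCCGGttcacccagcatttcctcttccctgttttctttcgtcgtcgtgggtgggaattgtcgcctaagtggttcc

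The ETS letters of UQCRH begin at position −46 from the transcript start and the NRF1 letters of ATP5MJ at −17. SDHA holds NRF1 letters at −117, −68 and −19 in the stretch shown, and a further match at −166. By complex, NRF1 letters were in 6 of 31 matched promoters of complex I, 2 of 3 of complex II, 4 of 8 of complex III, 1 of 12 of complex IV and 4 of 13 of complex V. YY1 letters were in 10 of the 31 complex I promoters, in 3 of the 8 of complex III and in 1 promoter each of complexes II, IV and V.

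Complex I, which oxidises NADH, showed a broad set of small positive estimates with a single call. Of 36 members, 35 were tested: 30 estimates were positive and 5 negative, NDUFB3 rose, none fell, and the median log2 fold change was 0.29. In 16 members every RSL3+ID library lay above every RSL3 library, against 12.8% of all genes tested. Of all genes tested, 1.08% were called higher. Counting NDUFA4 here instead changes the median little, to 0.29 over 36 tested genes, still with 1 call. NDUFC2, a membrane arm subunit, had 674, 872 and 787 normalised counts in RSL3+ID, against 457, 441 and 526 in RSL3, and NDUFA2, an accessory subunit of the matrix arm, had 2505, 3832 and 2786 in RSL3+ID, against 1692, 1749 and 2192 in RSL3. Neither pair of groups overlapped, but both adjusted p-values missed the threshold (0.0576 and 0.0718). The authors' deposited table lists 4 complex I members as higher: NDUFA1, NDUFA2, NDUFB3 and NDUFC2.

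The 7 core subunits of complex I, which carry the flavin and the iron-sulfur clusters, had a median of 0.16, the 11 NDUFB subunits of the membrane arm 0.30 and the 17 tested other accessory subunits 0.34. The difference between these sets was not tested. With the trend on length and GC content removed the medians were 0.083, 0.10 and 0.14. The core median ran from 0.0070 without RSL3 library 2 to 0.31 without RSL3 library 1, was 0.082 without RSL3+ID library 2 and 0.036 on the deposited log2 values, and is the estimate of a single low gene, NDUFV2, which averaged 29.4 normalised counts in RSL3+ID and 29.7 in RSL3. Among the core, NDUFV1, which binds NADH, had 2909, 3393 and 3238 normalised counts in RSL3+ID and 2341, 2417 and 2579 in RSL3. It was the only core subunit whose groups did not overlap (log2 fold change 0.38, 95% interval 0.09 to 0.67, adjusted p = 0.153). NDUFS1, the largest iron-sulfur subunit, had a negative estimate with overlapping groups (−0.11, 95% interval −0.45 to 0.23). NDUFV3, an accessory subunit of the NADH module, had the lowest estimate of complex I, −0.20 (95% interval −0.58 to 0.17), with overlapping groups, and NDUFB5 and NDUFA9 were also negative (−0.16 and −0.12).

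Complex II, which oxidises succinate and is the sole complex encoded entirely in the nucleus, did not share one direction. SDHB, the iron-sulfur subunit, had 2143, 2339 and 2290 normalised counts in RSL3+ID and 1780, 1719 and 1817 in RSL3, a log2 fold change of 0.35 (95% interval 0.06 to 0.63, adjusted p = 0.177). SDHD, a membrane anchor, had 1350, 1706 and 1524 normalised counts in RSL3+ID and 1271, 1129 and 1345 in RSL3 (log2 fold change 0.29, adjusted p = 0.324). Both had groups that did not overlap, SDHD by a narrow margin. Of all genes tested, 12.8% had every RSL3+ID library above every RSL3 library. SDHA, the catalytic flavoprotein, went the other way, with 1494, 2203 and 1886 normalised counts in RSL3+ID and 2381, 2067 and 2410 in RSL3 (log2 fold change −0.31, 95% interval −0.67 to 0.04, adjusted p = 0.323). RSL3+ID library 2 was the SDHA value that overlapped with RSL3, and without that library its adjusted p was 0.0526. SDHC, the other membrane anchor, had 878, 1348 and 1028 normalised counts in RSL3+ID and 1150, 1028 and 1174 in RSL3, with no clear difference (−0.06, 95% interval −0.44 to 0.32). The median of the 4 was 0.11, and no member was called. With the trend on length and GC content removed the median was 0.17, SDHC turned to 0.16 and SDHA stayed negative (−0.20). SDHA has pseudogene copies, with which reads may be shared.

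Complex III with cytochrome c held the widest range of estimates, from −0.41 to 0.81. Of 11 members, all tested, 9 were positive and 2 negative, and the median was 0.34. CYCS and UQCRH rose, beside 1.08% of all genes tested called higher. UQCRHL, a retrotransposed copy of UQCRH, had 239, 234 and 231 normalised counts in RSL3+ID and 141, 105 and 159 in RSL3 (log2 fold change 0.81, adjusted p = 0.0880). Its estimate resembles that of UQCRH, and reads of these copies cannot be kept apart with certainty. UQCRB, a small subunit near the ubiquinone site, had 3658, 4773 and 5561 normalised counts in RSL3+ID and 3142, 3333 and 3185 in RSL3 (0.51, adjusted p = 0.111), with the groups apart.

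The members of complex III with negative estimates belong to its large subunits. UQCRC2, a core protein of the matrix side, had 1237, 915 and 1219 normalised counts in RSL3+ID and 1497, 1534 and 1406 in RSL3. All 3 RSL3+ID libraries were lower (log2 fold change −0.41, 95% interval −0.75 to −0.06), but the adjusted p was 0.190. CYC1, cytochrome c1, the heme subunit that reduces cytochrome c, had 2485, 1833 and 2959 normalised counts in RSL3+ID and 2717, 2579 and 3297 in RSL3, with overlapping groups (−0.26, 95% interval −0.65 to 0.13). The partner core protein UQCRC1 gave 0.03 (95% interval −0.28 to 0.35), and the Rieske iron-sulfur protein UQCRFS1 gave 0.31 (adjusted p = 0.282). The authors' deposited table lists CYCS, UQCRB, UQCRH and UQCRHL as higher.

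Complex IV had a median of 0.38, above those of the other complexes here. That order did not hold throughout: with the trend on length and GC content removed complex IV had 0.17 and complex V 0.21, and without RSL3+ID library 1 complex IV had 0.41 and complex I 0.44. Of 15 members, 11 were tested: 10 estimates were positive and 1 negative. COX6C and COX7B rose, beside 1.08% of all genes tested called higher. In 8 of the tested members every RSL3+ID library lay above every RSL3 library, against 12.8% of all genes tested. COX6A1, the ubiquitous form of a regulatory subunit, had 2469, 3213 and 2522 normalised counts in RSL3+ID and 1849, 1715 and 2065 in RSL3 (log2 fold change 0.54, adjusted p = 0.0846). NDUFA4 had 7107, 4586 and 7233 normalised counts in RSL3+ID and 4300, 4147 and 4601 in RSL3. RSL3+ID library 2 lay within the RSL3 range and the other libraries of its group far above (0.51, adjusted p = 0.141). Without that library the adjusted p was 0.0006. The authors' deposited table lists COX6A1, COX6C and COX7B as higher.

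Several subunits of complex IV have a form made in most tissues and another made in muscle, testis or other special tissues. The common forms carried nearly all reads: COX6A1, COX6B1, COX7A2, COX7B and COX8A averaged 1889 to 3698 normalised counts in RSL3+ID and 1187 to 3093 in RSL3. The heart and muscle forms COX6A2 and COX7A1 had 0 to 2.89 normalised counts in RSL3+ID libraries and 0 in all RSL3 libraries, at or under the limit that a count of 0 allows. COX7B2 had 1.06 in a single RSL3+ID library and COX8C at most 6.19, in an RSL3 library. COX6B2, the testis form of COX6B1, passed the filter with 27.5, 10.9 and 9.63 normalised counts in RSL3+ID and 20.6, 26.9 and 6.19 in RSL3, and its direction could not be determined (−0.09, 95% interval −1.55 to 1.37). COX6B1 itself gave 0.07 (95% interval −0.23 to 0.37), which turned to −0.02 when libraries were scaled to their total count.

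In complex V all 17 tested members of 19 had positive estimates, from 0.06 to 0.70, with a median of 0.33, and ATP5MJ alone rose. ATP5F1C and ATP5PF turned negative with total count scaling (−0.0085 and −0.027) and with the trend on length and GC content removed (−0.070 and −0.11), and ATP5PF reached −0.10 with 1 library left out. In 11 members every RSL3+ID library lay above every RSL3 library, against 12.8% of all genes tested. Of all genes tested, 1.08% were called higher. ATP5F1B, the catalytic beta subunit and the most abundant member by normalised counts, had 17501, 14876 and 19149 normalised counts in RSL3+ID and 13729.5, 12158 and 12879 in RSL3 (log2 fold change 0.40, adjusted p = 0.127). ATP5F1E, the epsilon subunit, had 4976, 6190 and 5681 normalised counts in RSL3+ID and 3865, 3854 and 4078 in RSL3 (0.51, adjusted p = 0.0718). Both genes had all RSL3+ID libraries above all RSL3 libraries. In contrast the alpha and gamma subunits ATP5F1A and ATP5F1C overlapped between groups (0.10 and 0.08). ATP5F1A and ATP5F1B are equal in number in the enzyme. With the trend on length and GC content removed, ATP5F1A and ATP5F1B both gave 0.27, so their estimates no longer differed.

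ATP5MC1, ATP5MC2 and ATP5MC3 encode the same mature c subunit of the rotating ring from different genes. All 3 had groups that did not overlap and estimates of 0.33, 0.34 and 0.50. ATP5MC3 had 3736, 4614 and 4224 normalised counts in RSL3+ID and 2949, 2722 and 3192 in RSL3 (adjusted p = 0.0816). The 5 tested other membrane subunits had a median of 0.46, and the groups were apart in all 5. The 4 subunits of the peripheral stalk, which holds the catalytic head still, had a median of 0.20, and the groups were apart in 1 of them, ATP5PD. Among all genes tested, every RSL3+ID library lay above every RSL3 library in 12.8%. With the trend on length and GC content removed the medians were 0.21 for these membrane subunits and 0.13 for the stalk. The 5 ATP5F1 genes had 0.24 in the main fit and 0.27 with the trend removed, and the 3 c subunit genes 0.34 and 0.32. The differences between these sets were not tested. ATP5PF, a stalk subunit, had the lowest estimate of the complex (0.06, 95% interval −0.31 to 0.44), with 2116, 1608 and 2610 normalised counts in RSL3+ID and 1929, 1979 and 2036 in RSL3. The authors' deposited table lists ATP5F1E, ATP5MC3, ATP5MJ and ATP5MK as higher.

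**Figure D3:**
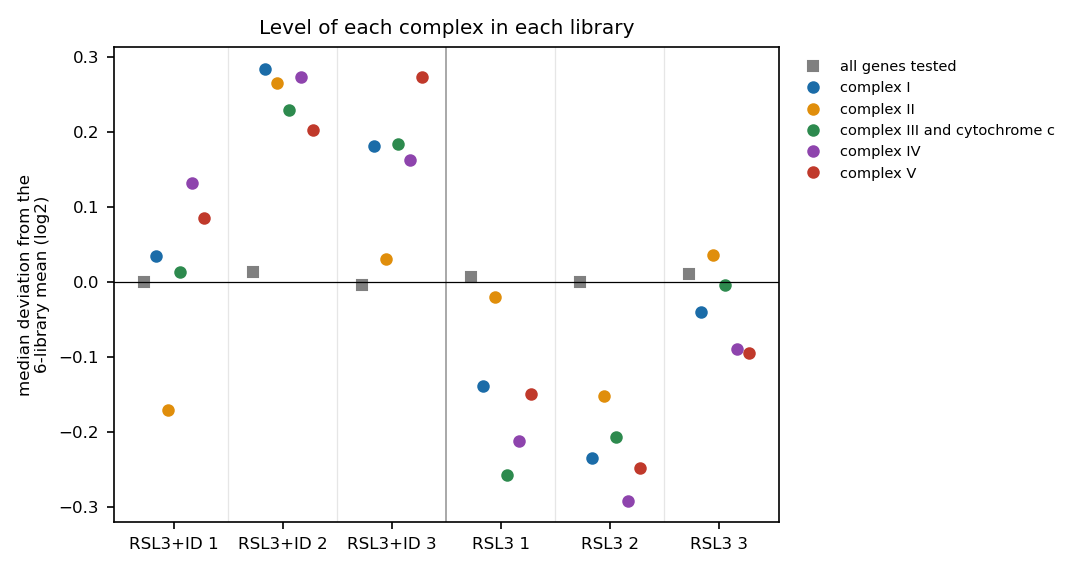
Median deviation from the 6-library mean (log2, vertical axis) of the tested members of each complex and of all genes tested (grey squares), for the 3 RSL3+ID libraries (left) and the 3 RSL3 libraries (right). All genes stay near 0, complexes I, III, IV and V lie above 0 in each RSL3+ID library and below 0 in each RSL3 library, and complex II lies on both sides in both groups.

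The libraries of a group were not alike in this respect. RSL3+ID library 1 deviated least, with medians of 0.04 for complex I, 0.01 for complex III and cytochrome c, 0.13 for complex IV and 0.09 for complex V. RSL3+ID library 2 gave 0.28, 0.23, 0.27 and 0.20 for the same complexes, and RSL3+ID library 3 gave 0.18, 0.18, 0.16 and 0.27. Among the RSL3 libraries, library 2 lay lowest for complexes I, IV and V (−0.23, −0.29 and −0.25) and library 3 nearest to 0 (−0.04, −0.09 and −0.09). Complex II ranged from −0.17 in RSL3+ID library 1 to 0.27 in RSL3+ID library 2.

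Members are mostly short genes, and short genes as a whole were higher in RSL3+ID. The median summed exon length was 2545 bases for tested members and 4893 for all genes tested. By complex it was 2475 (I), 5610.5 (II), 2180 (III), 1922 (IV) and 3231 (V), so complex II was the exception. Across all 14188 genes tested, the log2 fold change was related to the summed exon length with a Spearman rho of −0.26, and across the 78 members with −0.25. These are descriptions across genes, which share libraries. When genes were sorted into 10 bins of equal size by exon length, the median log2 fold change was 0.20 in the shortest bin (median 1345 bases) and −0.21 in the longest. The shortest 3 bins held 25, 16 and 11 of the members, and the longest 3 held 2, 5 and 3. The libraries themselves differed in this trend: the deviation of all genes from the 6-library mean was related to exon length with a rho of −0.02, −0.22 and −0.19 in RSL3+ID libraries 1, 2 and 3, and of 0.17, 0.29 and −0.01 in RSL3 libraries 1, 2 and 3.

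With the trend on length and GC content removed, 62 members were positive, and 3 rose: CYCS, COX6C and ATP5MJ (adjusted p = 0.0285, 0.0425 and 0.0388), beside 1.13% of all genes called higher. NDUFB3, UQCRH and COX7B were no longer called, with estimates of 0.47, 0.44 and 0.57 (adjusted p = 0.0868, 0.0878 and 0.0522). The medians of complexes I to V were then 0.13, 0.17, 0.15, 0.17 and 0.21. Scaling also moved the counts. With libraries scaled to their total count, which shifted the median of all genes to −0.11, 63 members were positive and CYCS alone rose (adjusted p = 0.0351), beside 0.634% called higher. With upper-quartile scaling (median of all genes 0.05), 69 were positive and 8 rose, NDUFA2 and NDUFC2 being the additions, beside 1.71% called higher.

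**Figure D4:**
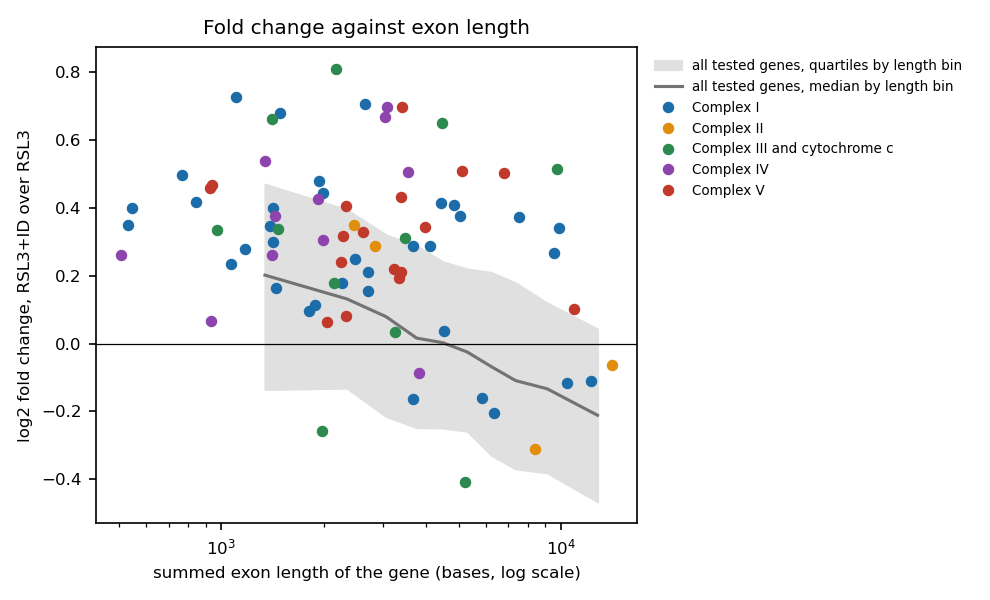
Log2 fold change (RSL3+ID over RSL3, vertical axis) of the 78 tested members, coloured by complex, against the summed exon length of each gene in bases (log scale); the grey line and band are the median and quartiles of all genes tested in 10 bins of length. The grey median runs from 0.20 in the shortest bin to −0.21 in the longest, and the 6 members that rose, with exon lengths from 1103 to 4457 bases, lie above the band, whose upper edge is at most 0.47.

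Levels differed far more between members than between groups. Per kilobase of the principal annotated transcript, the mean over the 6 libraries was highest for NDUFS5 in complex I (7012 normalised counts per kb), SDHB in complex II (1747), UQCRQ in complex III (9686), COX8A in complex IV (6697) and ATP5MK in complex V (11710). The lowest tested levels per kb were those of NDUFA9 (27.9), SDHC (81.2), UQCRHL (84.8), COX6B2 (10.2) and ATP5PB (282). For NDUFA9 and SDHC the annotated transcript is long (8363 and 13566 bases), so the value per kb depends on the annotation. NDUFV2, a core subunit of complex I, had only 28.5, 31.7 and 27.9 normalised counts in RSL3+ID and 51.8, 17.6 and 19.6 in RSL3. Of its transcript, 82.9% is also annotated to another gene on the same strand. In 12 members at least 30% of the transcript is shared in this way, among them NDUFA7 (75.9%), NDUFB8 (71.7%), ATP5PO (70.3%) and NDUFA11 (67.0%). Genes on the opposite strand also overlap members, among others 49.9% of ATP5ME, 44.5% of NDUFA1, 40.8% of UQCRQ and 32.4% of ATP5F1E. For ATP5PF the share is 19.5%, with GABPA among the overlapping genes. Without a known strand setting such reads cannot be told apart. The effect of these overlaps on the counts was not tested.

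The 7 members below the filter (a mean of at least 10 normalised counts) were NDUFA7, COX6A2, COX7A1, COX7B2, COX8C, ATP5MGL and ATP5MF-PTCD1. NDUFA7 had 7.39, 8.92 and 13.5 normalised counts in RSL3+ID and 8.04, 2.07 and 9.29 in RSL3. ATP5MGL, a copy of ATP5MG, had 1.03 in a single RSL3 library, and ATP5MF-PTCD1, a readthrough gene, had 0 in all 6 libraries. All 13 subunits encoded in mitochondrial DNA are listed at 0 in every library, so the nuclear and mitochondrial parts of the complexes could not be compared.

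Of the assembly factors around the subunits, TMEM70 alone was called. TMEM70, a membrane protein needed to assemble the ATP synthase and complex I, had 1840, 2314 and 2439 normalised counts in RSL3+ID and 1439, 1242 and 1279 in RSL3, and it rose (log2 fold change 0.73, SE 0.15, adjusted p = 0.0417). It was the only call among 20 complex I assembly factors (15 positive, median 0.21) and among 5 complex V assembly factors (3 positive, median 0.03). Of all genes tested, 1.08% were called higher. ACAD9, a complex I assembly factor, had 155, 367 and 199 normalised counts in RSL3+ID and 388, 378 and 534 in RSL3, lower in every RSL3+ID library but not called (−0.93, adjusted p = 0.113). None of 4 complex II factors (all positive, median 0.55), 9 complex III factors (6 positive, 0.35) or 25 complex IV factors (18 positive, 0.23) was called. The smallest adjusted p-values in these 3 lists were 0.220 and 0.305 (SDHAF4 and SDHAF2), 0.114 and 0.320 (LYRM7 and SMIM4) and 0.105 and 0.117 (CMC2 and COA5), all with positive estimates. A single library weighed on these medians: without RSL3+ID library 2 they were 0.087 for the factors of complex I, 0.26 for complex II, 0.12 for complex III, 0.037 for complex IV and −0.11 for complex V. Without RSL3 library 2 the medians for complexes I and III were 0.087 and 0.098.

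The 7 tested structural or associated subunits that the symbol rule misses were all positive, with a median of 0.49, although HIGD2A turned to −0.089 with the trend on length and GC content removed. HIGD1A, a small protein that binds complex IV, had 1768, 2404 and 2675 normalised counts in RSL3+ID and 1410.0, 1465 and 1336 in RSL3 (log2 fold change 0.68, adjusted p = 0.0594). NDUFAB1, the acyl carrier protein within complex I, had 1367, 2160 and 1425 normalised counts in RSL3+ID and 1147, 1016 and 1101 in RSL3 (0.57, adjusted p = 0.119). Groups were apart for both, and the authors' deposited table lists both as higher. Enzymes that feed the chain had medians near 0: of 18 enzymes of the citric acid cycle and pyruvate dehydrogenase, 10 were positive (median 0.02), of 13 enzymes of ubiquinone synthesis 8 (median 0.01), and of 8 other dehydrogenases that reduce ubiquinone 6 (median 0.09). No gene of these 3 lists was called. The smallest adjusted p-values in them were 0.300 and 0.326 (DLST and SUCLG1), 0.156 and 0.580 (COQ10A and COQ7) and 0.199 and 0.314 (ETFB and ETFA).

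Among regulators of respiratory genes negative estimates outnumbered positive ones. Of 18 tested, 11 were negative and 7 positive (median −0.25), none rose, and CREB1, a cAMP-responsive transcription factor, fell. It had 222, 260 and 247 normalised counts in RSL3+ID and 440, 513 and 376 in RSL3 (log2 fold change −0.86, SE 0.20, adjusted p = 0.0490). NFE2L2, the antioxidant factor NRF2, had 652, 489 and 572 normalised counts in RSL3+ID and 939, 1187 and 756 in RSL3, lower in every RSL3+ID library without passing the test (−0.74, adjusted p = 0.0735). NRF1, GABPA and YY1, which are among the factors whose motifs were searched, gave 0.10, −0.55 and 0.01, none of them called. In 7 regulators every RSL3+ID library lay below every RSL3 library, beside 12.6% of all genes tested. Of all genes tested, 0.832% were called lower.

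**Figure D5:**
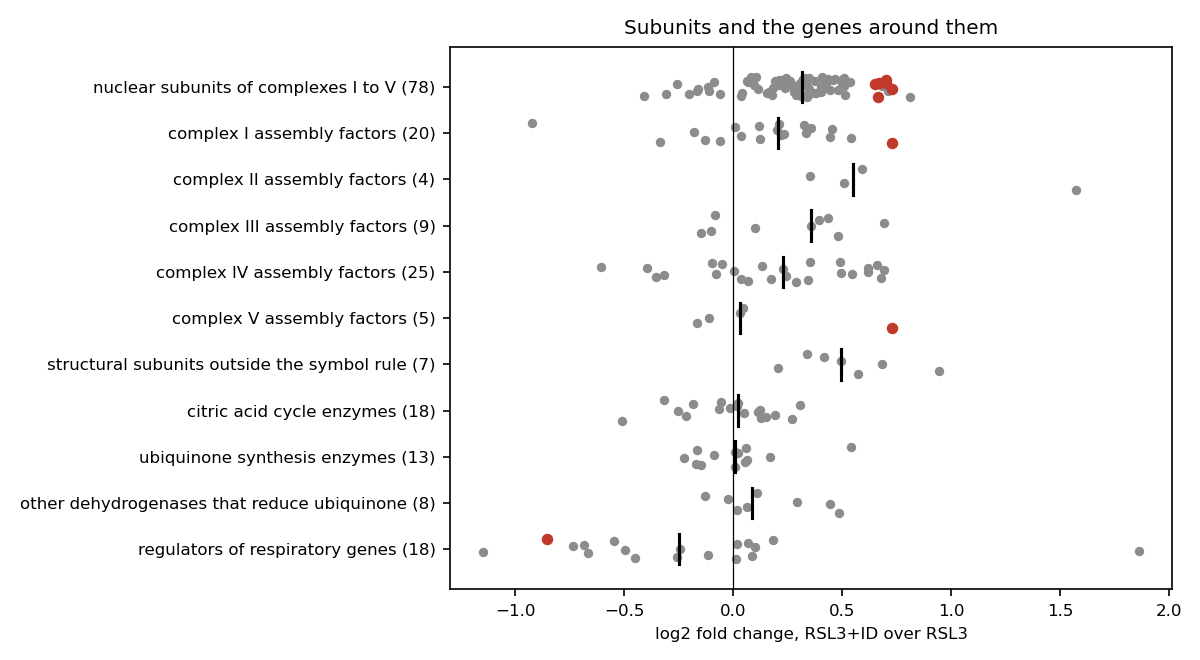
Log2 fold change (RSL3+ID over RSL3, horizontal axis) of each tested gene in the nuclear subunits and in 10 lists of genes around them; numbers in brackets are genes tested, black bars are medians, and red points had an adjusted p under 0.05. Subunit medians lie at 0.31 and, for subunits outside the symbol rule, 0.49, citric acid cycle enzymes centre on 0.02, and regulators centre on −0.25.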

How the data were processed

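Sequencing measured RNA in 6 libraries of BEAS-2B cells, 3 per group. Per the labels' protocols, TRIzol was used for total RNA and a NEBNext Ultra RNA kit for the libraries. Trimmomatic 0.39, HISAT2 2.2.1, StringTie 2.1.5, DESeq2 1.30.0 and the build GRCh38 are listed in the submitters' processing notes without a role. How reads were counted, with which strand setting, annotation and filters, is not given in the sources used here.

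The authors deposited log2 expression values that have the form of DESeq2's variance-stabilising transform. Inverting it gave counts divided by size factors. Their means matched the mean signal in the authors' deposited table of changed genes (894 genes, largest relative difference 2.5e-14), and 100% of values lay within 0.001 of whole reads. That deposited table also holds log2 fold changes, a Wald score and p-values of the authors.

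Normalised counts were tested as log2(normalised count + 1), which understates changes of low genes, by limma 3.58.1 in R 4.3.3 (trended, robust empirical Bayes, statmod 1.5.0). Genes with a mean of at least 10 were tested, with 2-sided p-values adjusted by Benjamini-Hochberg over all of them. The step was tested on simulated data. Lengths, overlaps and gene coordinates are from GENCODE (GRCh38), and promoters are from RefSeq. Alternatives were other scalings, pseudocounts and filters, the deposited values, limma voom on recovered reads, removal of a trend on length and GC content, a replicate block, and each library left out.

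The members and gene lists were chosen with earlier results of these data known. The genes named are all called members, in complexes I, III, IV and V the 3 with the smallest p in each direction, all of complex II, CYC1 and CYCS, isoform pairs, the highest and lowest levels per kb, members below the filter, and the leading genes of each list. A few others were named after their values were seen. Values of 1 member are not reported here, nor drawn by name, though it is included in the counts.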

Additional observations from a re-analysis of the deposited data

How the results depend on the processing

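The members leaned the same way in every alternative, but the calls were fragile. Positive estimates numbered 62 to 70 in the alternatives that tested 78 members, 72 of 84 without a filter and 67 of 76 with a filter of 50. In the main fit 48.5% of all genes tested were positive. With the replicate number as a block, all genes called numbered 0, as did the called members of each complex. Whether the numbers pair the libraries was not established. Deviations of same-numbered libraries correlated at −0.00, −0.25 and −0.18, and those of differently numbered libraries at −0.19 to 0.31. With 3 libraries per group such correlations cannot decide it. Called members of complex I numbered 1, but 0 with total count scaling, 3 with upper-quartile scaling, 2 without a filter and 0 once the trend on length and GC content was removed. Complex III and cytochrome c had 2, but 1 with total count scaling and 1 with the trend removed. Complex IV had 2, but 0 with total count scaling, 1 with limma voom and 1 with the trend removed. Complex V had 1, but 0 with total count scaling. Genes called higher made up 1.08% of all genes tested in the main fit, 0.634% with total count scaling and 1.71% with upper-quartile scaling. They made up 0.82% without a filter, 0.959% with limma voom and 1.13% with the trend removed. Removing the trend gave medians of 0.13, 0.17, 0.15, 0.17 and 0.21 for complexes I to V. The cause of these shifts was not tested.

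With each library left out in turn, all genes called ranged from 0 to 1315, members called from 0 to 5 (complex I), 0 to 3 (III), 0 to 3 (IV) and 0 to 6 (V), none of complex II, and medians from 0.21 to 0.44 (I), −0.01 to 0.23 (II), 0.26 to 0.40 (III), 0.31 to 0.44 (IV) and 0.30 to 0.38 (V). The highest counts were without RSL3+ID library 2, where 5.21% of all genes tested were called higher.

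Sign changes among uncalled members include these. COX6B1 gave −0.024 with total count scaling and −0.19 with the trend removed. With the trend removed, COX8A gave −0.044, NDUFS1 0.083, NDUFA9 0.048 and SDHC 0.16, and with upper-quartile scaling SDHC gave 0.0032. NDUFA12, NDUFB4, NDUFS6, UQCRC1, ATP5F1C and ATP5PF also turned negative with the trend removed (−0.014 to −0.11), NDUFB10 was then at −0.00020, and NDUFS8, UQCRC1, ATP5F1C and ATP5PF turned negative with total count scaling (−0.0085 to −0.057). With each library left out, COX6B2 ranged from −0.68 to 0.30, NDUFA9 from −0.32 to 0.059, SDHC from −0.23 to 0.078, NDUFA13 from −0.16 to 0.59, NDUFB1 from −0.080 to 0.47, NDUFS8 from −0.022 to 0.13, NDUFV2 from −0.12 to 0.63, UQCRC1 from −0.031 to 0.14 and ATP5PF from −0.10 to 0.25.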
